A study of Mus musculus with 6 samples.

Results

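The transgelins and calponins are a family of small actin-binding proteins encoded in the mouse by Tagln, Tagln2, Tagln3, Cnn1, Cnn2 and Cnn3. Every probe annotated with 1 of these 6 gene symbols was taken from an Illumina bead array of 25697 probes, on which 16593 gene symbols were named. This gave 6 probes, of which 2 were for Cnn2 and 1 each for Tagln, Tagln3, Cnn1 and Cnn3. No probe carried the symbol Tagln2, which is not analysed here. The arrays measured mRNA of primary vascular smooth muscle cells transduced with lentivirus and compared miR-128 with a scrambled miRNA. The mir128 group received the miR-128 virus. The groups titled shScr2 and shScr1 both carry the label scrambled miRNA and are taken as separate controls. Each group held 2 biological replicates, named A and B. All 3 groups came from C57BL/6J mice labelled 8 weeks old, and all were kept under puromycin for 2 days with RNA taken at 5 days. The labels give neither the promoter that drives the virus nor the animals or cultures behind a replicate, so the p-values measure only the spread between these arrays.

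Transgelin, also called SM22-alpha, is a calponin-like protein of smooth muscle that binds and bundles actin filaments, and its gene is a standard marker of contractile vascular smooth muscle. Calponin 1 is a smooth muscle protein that binds actin and inhibits the ATPase of myosin, while calponins 2 and 3 are made in many cell types, where they bind actin filaments of the cytoskeleton. Smooth muscle copies of the family are classic targets of serum response factor, which binds a motif called the CArG box with the coactivator myocardin and its relatives. Vascular smooth muscle cells are known to lose these proteins as they shift in culture from a contractile to a proliferative state.

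The mature miR-128-3p of the mouse is shown because it is the agent of the comparison, with its seed, bases 2 to 8, in capitals. RefSeq lists the same 21 bases from both hairpins, Mir128-1 and Mir128-2 (build GRCm38.p6), and the labels do not say which hairpin the virus carried.
miR-128-3p: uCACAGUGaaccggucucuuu

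Promoter sequences from RefSeq (GRCm38.p6), each of 300 bases around the annotated start, were matched for 5 of the 6 genes, all but Tagln. They are shown for the 3 calponin genes, of which 1 was undetected, 1 was detected without passing the test and 1 passed. Capitals mark CArG boxes and CCAAT, searched on both strands, where ATTGG is CCAAT read on the other strand.
Cnn1 promoter, chr9:22099003-22099302 (+): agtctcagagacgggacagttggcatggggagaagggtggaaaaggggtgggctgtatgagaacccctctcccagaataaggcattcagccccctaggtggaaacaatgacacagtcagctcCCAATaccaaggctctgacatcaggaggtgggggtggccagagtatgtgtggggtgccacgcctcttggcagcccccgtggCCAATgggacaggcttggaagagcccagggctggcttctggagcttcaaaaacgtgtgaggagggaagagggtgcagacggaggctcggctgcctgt
Cnn2 promoter, chr10:79988350-79988649 (+): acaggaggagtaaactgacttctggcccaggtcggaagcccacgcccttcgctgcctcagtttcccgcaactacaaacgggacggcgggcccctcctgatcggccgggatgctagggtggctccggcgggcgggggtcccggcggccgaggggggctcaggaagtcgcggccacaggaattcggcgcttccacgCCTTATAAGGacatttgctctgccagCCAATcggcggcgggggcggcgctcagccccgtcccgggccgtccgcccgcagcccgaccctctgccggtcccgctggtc
Cnn3 promoter, chr3:121426291-121426590 (+): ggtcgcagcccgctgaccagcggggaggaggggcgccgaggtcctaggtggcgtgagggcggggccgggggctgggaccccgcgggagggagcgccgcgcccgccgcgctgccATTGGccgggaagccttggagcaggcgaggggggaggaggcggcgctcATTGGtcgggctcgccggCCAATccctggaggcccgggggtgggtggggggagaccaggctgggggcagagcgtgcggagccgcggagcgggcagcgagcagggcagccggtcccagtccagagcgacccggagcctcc
The Cnn2 window held 1 CArG box, which begins 56 bases before the start and does not overlap the single CCAAT at 30 bases before it. The Cnn3 window held 3 CCAAT motifs and the Cnn1 window 2, and neither held a CArG box. The windows of Tagln2 and Tagln3 held no CArG box either. Of 32851 RefSeq mouse promoter windows of this length, 1.63% held a CArG box and 37.4% held CCAAT. The GC box, GGGCGG, stood in 35.7% of windows, and the Cnn2 window held 3 and the Cnn3 window 1, with none in Cnn1. The core of the TEAD motif, CATTCC, stood in 14.7% of windows and in none of the calponin windows. These matches describe letters in a window and are not binding sites.

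A probe was called detected where its detection p-value, the rank of its intensity among negative control beads, was under 0.05. Between 11589 and 12040 probes were detected on the scrambled arrays, against 13277 on mir128 replicate A and 12343 on mir128 replicate B. The upper quartile of intensity was 373 on mir128 replicate A and 247 on replicate B, and 201 to 252 on the scrambled arrays, so mir128 replicate A was the brightest array. Replicates A and B differed, probe by probe, with an SD of 0.541 on the log2 scale in mir128, 0.312 in shScr2 and 0.285 in shScr1. The fit shares 1 estimate of the spread over the groups, and 2 arrays a group limit its precision. A probe was tested where it was detected on at least 2 of the 6 arrays, which 12452 probes with a gene symbol passed.

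The 8 defining markers of vascular smooth muscle were checked against the label of the cells. Acta2, Tagln and Smtn were detected on all 6 arrays. Cnn1 was detected on none, and Myh11 and Mylk on both mir128 arrays and on no scrambled array. Lmod1 was detected on both mir128 arrays, 1 shScr2 array and no shScr1 array. Des was detected on 1 array of each group and did not pass, at −0.26 against shScr1 and −0.13 against shScr2 on the log2 scale. The summed intensity of the 14 probes of these markers was 98665 to 99812 on the mir128 arrays, 31130 to 33126 on the shScr2 arrays and 17160 to 18661 on the shScr1 arrays. This sum holds 4 Acta2 probes, which reached 27857, while no probe of another marker exceeded 2647, the highest of Smtn. It also includes Tagln and Cnn1, so it is not separate from the family.

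Of the 6 probes, those of Tagln, Cnn3 and Cnn2 were detected on all 6 arrays and tested, which made 4 tested probes. Those of Cnn1 and Tagln3 were detected on 0 of the 6 arrays. Tagln and Cnn3 were higher with miR-128 against each scrambled group, while neither Cnn2 probe passed the test. Of 4 tested probes, 2 were thus called higher and 0 lower in each comparison, where the background over all 12452 probes was 10.5% called higher and 10.2% lower against shScr1, and 9.85% higher and 9.11% lower against shScr2, or 20.6% and 19.0% called in either direction. Both mir128 arrays lay above all 4 scrambled arrays for the Tagln and the Cnn3 probe, which was also true of 22.8% of all tested probes.

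**Figure D1:**
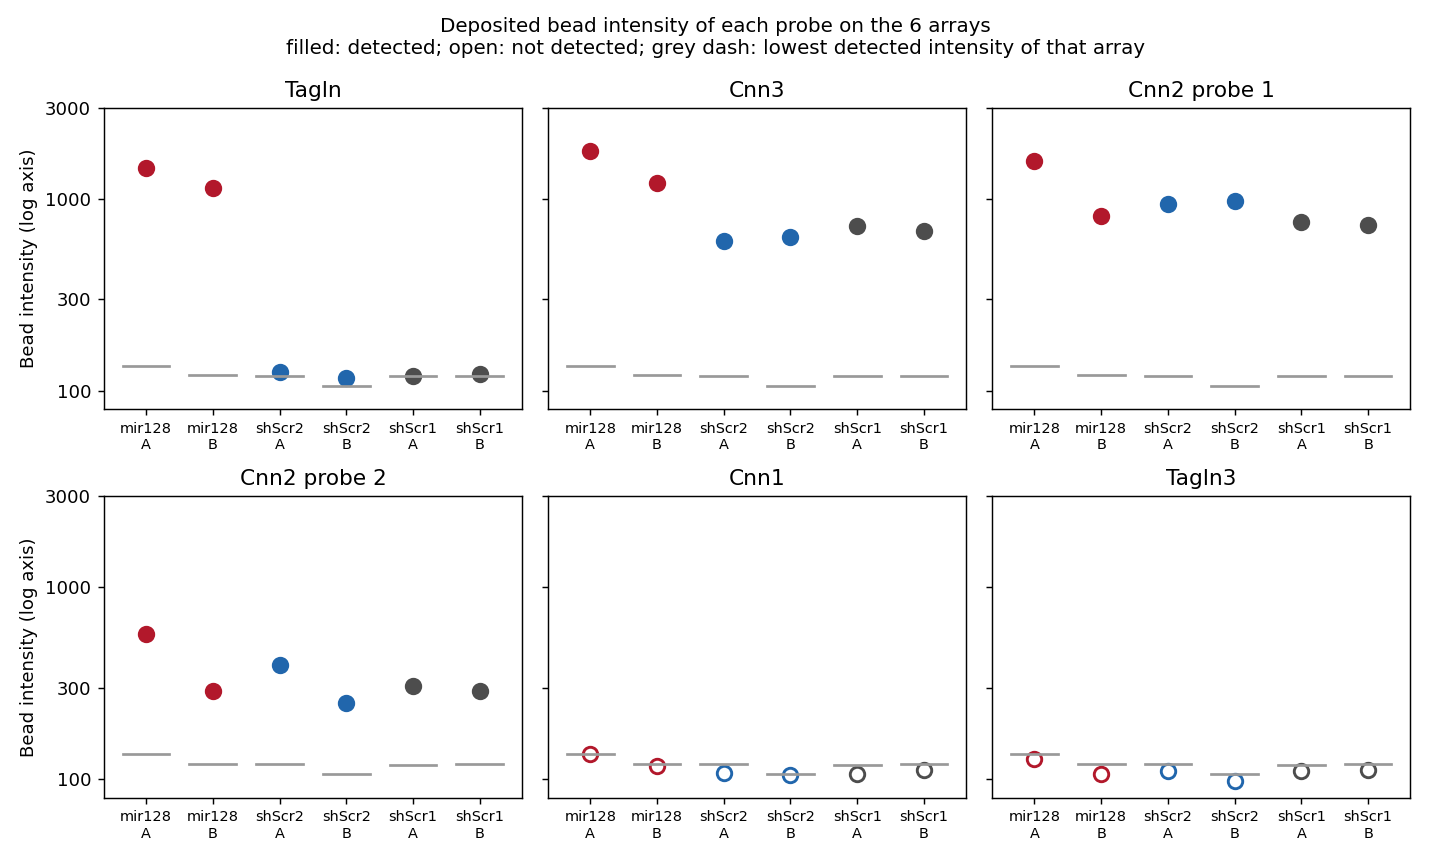
Deposited intensity (linear units, log axis) of each of the 6 probes on each of the 6 arrays, with mir128 left of the scrambled groups; filled points were detected, open points were not, and grey dashes mark the lowest detected intensity of the array. Tagln reaches 1449 and 1138 on the mir128 arrays and at most 126 on a scrambled array, and the Cnn1 and Tagln3 probes reach at most 135.

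Tagln (probe ILMN_1243652) showed the widest separation of the family. Its intensity was 1449 and 1138 on the mir128 arrays, 126 and 117 on the shScr2 arrays, and 119 and 122 on the shScr1 arrays. The groups did not overlap, and the 4 scrambled arrays lay within a few units of each other. These scrambled values sat just above the lowest detected intensities, which ran from 106 to 120 on those arrays, and their detection p-values were 0.0150 and 0.00627 in shScr2 and 0.0489 and 0.0301 in shScr1. On both mir128 arrays the detection p-value was 0. Tagln transcripts on the scrambled arrays were thus close to the limit of the assay although this gene marks the labelled cell type. In bulk RNA, fewer cells that make a transcript and less of it per cell cannot be told apart.

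After background correction and quantile normalization the Tagln level was 9.75 and 10.10 (log2) on the mir128 arrays. It was 5.24 and 5.53 on the shScr2 arrays and 4.89 and 5.08 on the shScr1 arrays. Tagln rose with miR-128 by 4.94 ± 0.21 (log2, SE) against shScr1, a 30.8-fold change with an unadjusted 95% interval of 21.9 to 43.2 (limma, adjusted p = 0.000200). Against shScr2 it rose by 4.55 ± 0.21, a 23.3-fold change with an interval of 16.6 to 32.8 (limma, adjusted p = 0.000466). By size of rise it ranked 5 and 3 among the 12452 probes. The shScr2 level lay 0.40 above the shScr1 level (interval −0.09 to 0.89), which did not pass (limma, adjusted p = 0.589).

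The size of the Tagln change rests on how the low scrambled values were handled. The ratio of mean intensities, with nothing subtracted, was 10.7 against each scrambled group. Without background correction the log2 change was 2.96 against shScr1 and 2.85 against shScr2, and on the authors' own processed values it was 1.84 and 1.80. At a stricter detection limit of 0.01, an alternative chosen after the data were seen, Tagln was detected on both mir128 arrays, on 1 of the 2 shScr2 arrays and on no shScr1 array. Tagln passed the threshold under every other way of processing the arrays that was run.

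Tagln3, which encodes the transgelin of neurons, was not detected on any array (probe ILMN_2745930). Its intensity was 128 and 107 on the mir128 arrays, 110 and 97.5 on the shScr2 arrays, and 111 and 112 on the shScr1 arrays, with detection p-values from 0.155 to 0.505. The groups overlapped and no change can be given. Of the 7 neuronal markers, Map2 was the single one tested, and it did not pass (log2 change 0.43 against shScr1 and 0.39 against shScr2).

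Cnn1, the smooth muscle calponin gene, was likewise below detection (probe ILMN_1221148). Its intensity was 135 and 117 on the mir128 arrays, 107 and 106 on the shScr2 arrays, and 107 and 111 on the shScr1 arrays. Both mir128 intensities lay above all 4 scrambled ones, on arrays that were not yet scaled to each other. The detection p-value was 0.0526 and 0.0827 on the mir128 arrays and 0.0564 on shScr2 replicate B. The other 3 scrambled arrays had detection p-values of 0.187 to 0.565. After normalization shScr2 replicate B, at 4.90 (log2), lay above both mir128 arrays, at 4.69 each, so the groups overlapped and no change can be given. A single probe at the level of the negative controls does not show whether Cnn1 mRNA was absent or was missed by the probe.

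Cnn2 encodes a calponin of smooth muscle and many nonmuscle cells and was measured by 2 probes. The brighter, ILMN_1226666, had intensities of 1583 and 818 on the mir128 arrays, 943 and 981 on the shScr2 arrays, and 757 and 729 on the shScr1 arrays. The mir128 arrays lay apart from each other and spanned the shScr2 values, and replicate A, the higher, was the brightest array overall. The part of that brightness in the raw intensities was not tested. After normalization the levels were 9.88 and 9.55 (log2) in mir128, 9.91 and 10.07 in shScr2 and 9.35 and 9.46 in shScr1. On this scale mir128 lay above shScr1 and below shScr2 in all 4 pairs of arrays each.

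The Cnn2 difference was 0.31 against shScr1 (95% interval −0.14 to 0.76; limma, adjusted p = 0.283) and −0.27 against shScr2 (interval −0.72 to 0.18; limma, adjusted p = 0.346). Neither passed, and the intervals hold changes of either sign. Without mir128 replicate A the differences were 0.14 and −0.44, and without replicate B they were 0.47 and −0.11, and none passed. The scrambled groups differed by more than either of these, with shScr2 0.58 above shScr1 (interval 0.13 to 1.03; unadjusted p = 0.0183 in limma). That difference did not pass over all probes (limma, adjusted p = 0.340), where 0.0723% of probes were called between the scrambled groups.

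The other Cnn2 probe, ILMN_2596369, had intensities of 573 and 287 on the mir128 arrays, 395 and 249 on the shScr2 arrays, and 307 and 290 on the shScr1 arrays. All 3 groups overlapped, and replicate A was the higher in each. Its log2 changes were 0.15 against shScr1 (interval −0.52 to 0.82; limma, adjusted p = 0.742) and −0.22 against shScr2 (interval −0.89 to 0.45; limma, adjusted p = 0.617). Between the scrambled groups it stood 0.37 higher in shScr2 (interval −0.30 to 1.04). The signs matched those of the brighter probe in all 3 contrasts, and none passed.

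Cnn3, the acidic calponin found in many nonmuscle cells, was the second gene of the family to pass. Its probe, ILMN_2589785, had intensities of 1789 and 1214 on the mir128 arrays, 604 and 634 on the shScr2 arrays, and 726 and 679 on the shScr1 arrays. The mir128 arrays were clear of all scrambled arrays, and the higher was again replicate A. Normalization brought the mir128 replicates together, at levels of 10.11 and 10.20 (log2), against 9.18 and 9.40 in shScr2 and 9.27 and 9.35 in shScr1.

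Cnn3 rose by 0.84 ± 0.17 (log2, SE) against shScr1, or 1.80-fold (95% interval 0.44 to 1.25 in log2; limma, adjusted p = 0.0188). Against shScr2 it rose by 0.86 ± 0.17, or 1.82-fold (interval 0.46 to 1.27; limma, adjusted p = 0.0178). The difference between shScr2 and shScr1 was −0.02, with an interval of −0.42 to 0.38. Without mir128 replicate A, the brightest array, Cnn3 was 0.90 higher against shScr1 and 0.92 higher against shScr2. That fit holds 1 mir128 array, so its spread comes from the scrambled arrays alone and does not measure the spread within mir128. The call was lost without either shScr1 array in the comparison with shScr1, at adjusted p = 0.133 without replicate A and 0.120 without replicate B in limma. Against shScr2 it was lost without any single scrambled array, at adjusted p = 0.0542 to 0.133 in limma, and with only the 2 groups in the fit (adjusted p = 0.0547).

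**Figure D2:**
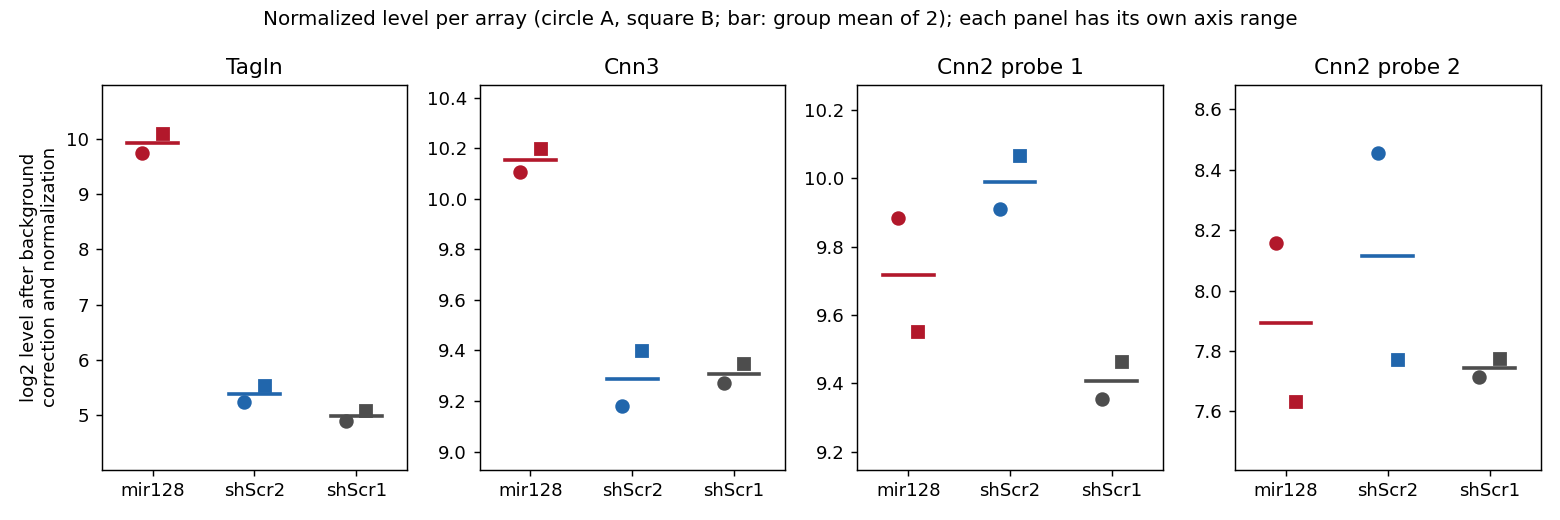
Normalized log2 level of the 4 tested probes on each array, with mir128 left of the scrambled groups and horizontal bars at the group means (n = 2); each panel has its own axis. Tagln and Cnn3 stand above all scrambled arrays in mir128. The mir128 points of Cnn2 probe ILMN_1226666 lie between those of shScr1 and shScr2, and those of Cnn2 probe ILMN_2596369 overlap both scrambled groups.

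**Figure D3:**
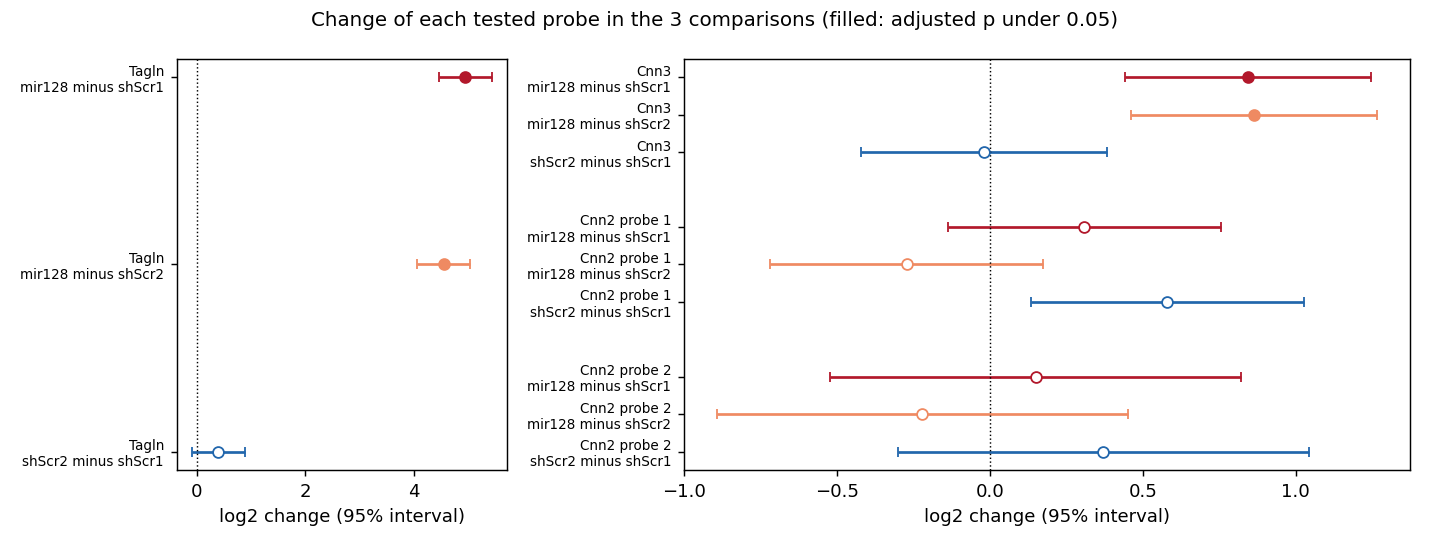
Log2 change of the 4 tested probes with 95% intervals from limma for mir128 minus shScr1, mir128 minus shScr2 and shScr2 minus shScr1. The Tagln intervals start above 4 and the Cnn3 intervals above 0.4 in both miR-128 contrasts, and the Cnn2 intervals in those contrasts span 0.

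**Figure D4:**
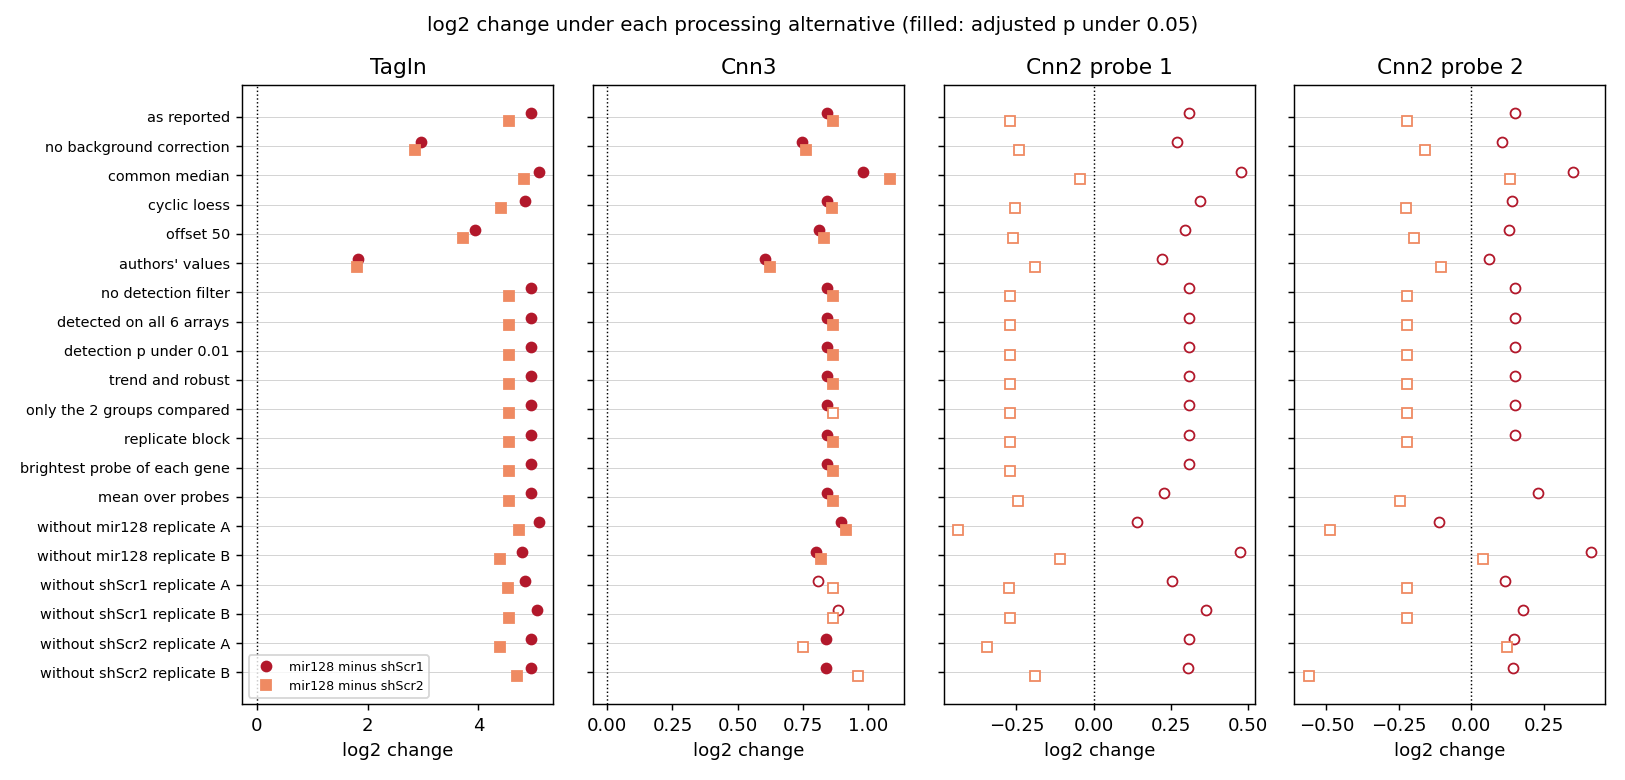
Log2 change of the 4 tested probes under each way of processing the arrays (rows), with circles for mir128 minus shScr1, squares for mir128 minus shScr2 and filled points for calls past the threshold; Cnn2 probe 1 is ILMN_1226666. Tagln ran from 1.84 to 5.10 against shScr1 and from 1.80 to 4.82 against shScr2 and passed throughout, while Cnn3 stayed between 0.60 and 1.08 with some calls lost.

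Scaling each array to a common median instead of quantile normalization moved the median of all probes to 0.13 against shScr1 and 0.21 against shScr2. Under that scaling Cnn3 was at 0.98 and 1.08 and Tagln at 5.10 and 4.82. Both stayed above the shifted median and past the threshold.

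Genes whose log2 profile over the 6 arrays was most like that of each family gene were named by the smallest root mean square difference between centred profiles, among 9009 other genes by their brightest probe. For Tagln these were Lmcd1 at 0.26, Actg2 and Asb2 at 0.44 each, Mustn1 at 0.58 and Lims2 at 0.63. Lmcd1 encodes a LIM domain protein, Actg2 the enteric smooth muscle actin, and Asb2 a subunit of a muscle ubiquitin ligase. Asb2 and Mustn1 were not detected on any scrambled array. For Cnn3 the nearest profiles were those of Fez1 at 0.04, Tceal9 and Dynlrb1 at 0.05 each, and Pon2 and Prorsd1 at 0.06 each. Dynlrb1 encodes a light chain of dynein and Pon2 a paraoxonase. For Cnn2 they were Sat1 and Efl1 at 0.06 each, and Tpst2, Edrf1 and Fbxo30 at 0.08 each, of which Sat1 encodes the enzyme that acetylates spermidine and spermine. The measure rests on 6 arrays and has no test.

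Tagln and its relatives act on the thin filament, so 24 other genes of smooth muscle filaments were counted beside them. Of these, 18 were tested by their brightest probe, and 15 were called higher and 0 lower against shScr1, with 11 higher and 0 lower against shScr2. Of the 18, Lmod1, Mrvi1, Myh11, Mylk and Synm were detected on fewer than 2 of the 4 scrambled arrays and entered the test through mir128, where they could hardly be called lower. In this split, chosen after the values were seen, 11 of the other 13 genes were higher and 0 lower against shScr1, and 7 higher and 0 lower against shScr2, with medians of 1.12 and 0.94. At an unadjusted p under 0.05 in limma, 16 and 14 of the 18 were higher and 0 lower in either comparison. The share of all genes at that unadjusted threshold was not computed. At the adjusted threshold, 21.7% of all 9010 genes were called in either direction against shScr1 and 20.1% against shScr2. The median log2 change of the 18 genes was 1.34 and 1.08, where that of all genes was 0.00019 and 0.0019. With the genes undetected on a whole scrambled group set at their lower bound, the medians were 1.08 and 0.99. Without replicate A or B of the scrambled group compared, the medians were 1.32 and 1.38 against shScr1 and 1.20 and 1.03 against shScr2. In those fits the calls over all probes fell too, so calls within the list are not given. The medians were 1.03 to 1.38 over all arrays left out against shScr1.

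Among the filament genes, Actg2 rose by 5.76 against shScr1 and 4.52 against shScr2. Tpm1, a tropomyosin that lies along actin, rose by 1.84 and 1.54. Myl6, a myosin light chain, rose by 0.58 against shScr1, and its change of 0.48 against shScr2 did not pass. Actn1, an actinin that crosslinks actin, likewise rose by 0.88 against shScr1, with 0.41 against shScr2 not passing. Acta2, the alpha smooth muscle actin gene, rose by 1.12 against shScr1 by its brightest probe, and that probe was at 0.27 against shScr2 (limma, adjusted p = 0.367). The other 3 Acta2 probes, each detected on all 6 arrays, rose by 4.01, 3.54 and 4.23 against shScr1. Against shScr2 they rose by 2.75, 2.32 and 2.93 (limma, adjusted p = 0.00088, 0.0011 and 0.0015), so the Acta2 probes disagree in size. Myh11, the smooth muscle myosin heavy chain gene, was detected on the mir128 arrays alone and, on the background-corrected scale, was at least 2.06-fold higher against each scrambled group.

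Transgelins and calponins carry a calponin homology domain, and 54 other genes with that domain were listed. Of the 26 tested, 7 were called higher and 0 lower against shScr1, and 6 higher and 1 lower against shScr2, with medians of 0.45 and 0.42. Beside the 21.7% and 20.1% of all genes called in either direction, the number called was near the background, but its direction was mostly higher. With brightest probes fitted alone, 1120 of 9010 genes were higher and 973 lower against shScr1, and 1090 and 918 against shScr2. The difference in direction was not tested. Without replicate A or B of the scrambled group compared, the medians were 0.47 and 0.38 against shScr1 and 0.35 and 0.36 against shScr2. Calls in those fits are again not given. Smtn, smoothelin, a marker of contractile smooth muscle, rose by 1.44 against shScr1 and 1.29 against shScr2 by its brightest probe. Another Smtn probe rose by 1.24 and 1.11, while a further one, at 0.64 and 0.83, did not pass. Smtn and Actn1 stand on both this list and the filament list, and both were among the 7 called higher against shScr1. Plec and Specc1l, which encode large cytoskeletal linkers, were at −0.25 and 0.18 against shScr1 and at −0.18 and 0.33 against shScr2, and Mapre1, a microtubule end-binding protein gene, was at −0.06 and −0.22. None of those 3 passed. The gene called lower against shScr2 was Syne1, a nuclear envelope spectrin-repeat protein gene, at −0.75, which was undetected on both mir128 arrays and was named after its value was seen.

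**Figure D5:**
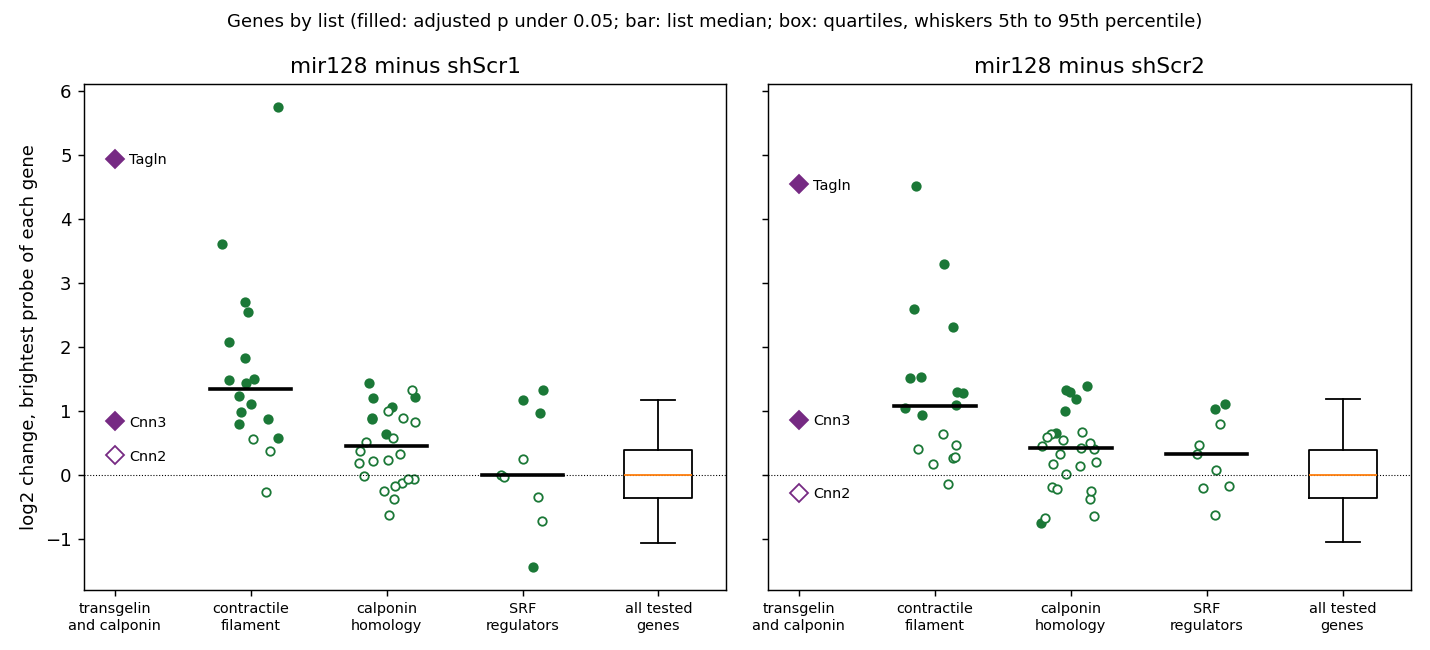
Log2 change against shScr1 and against shScr2 for Tagln, Cnn3 and Cnn2 (diamonds) and for the genes of the smooth muscle filament, calponin homology and serum response factor (SRF) lists, 1 point per tested gene by its brightest probe, with bars at list medians and a box of all tested genes. The filament genes reach 5.76 and go no lower than −0.26, and the calponin homology genes lie between −0.75 and 1.44.

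Regulators of serum response factor and of smooth muscle phenotype made a list of 17 genes, of which 9 were tested. Against shScr1, 3 were called higher and 1 lower, with a median of 0.0028, and against shScr2, 2 were called higher and 0 lower, with a median of 0.34. Beside them stand the same 21.7% and 20.1% of all genes called in either direction. The counts rest on 9 genes, and their difference from those shares was not tested. Mrtfa and Mrtfb, the myocardin-related coactivator genes, entered the test through mir128. Without them 2 were higher and 1 lower against shScr1, and 2 higher and 0 lower against shScr2. The medians without them were −0.036 against shScr1 and 0.074 against shScr2. Without replicate A or B of the scrambled group compared, the medians were −0.015 and 0.028 against shScr1 and 0.26 and 0.40 against shScr2. Srf, the factor that binds the CArG box, rose by 1.33 against shScr1 and 1.04 against shScr2 by its bright probe, and its dim probe was at 0.26 and −0.10. Myocd, its coactivator, was detected on 1 mir128 array and no scrambled array and was not tested. Prrx1 fell by 1.43 on the log2 scale against shScr1 by its brightest probe, while its −0.62 against shScr2 did not pass. Other Prrx1 probes were at −1.38, −1.17 and −0.41 against shScr1, of which only the first passed. Against shScr2 they were at −0.58, −0.76 and 0.28, and none passed. Klf4, a repressor of contractile genes, was at −0.35 and 0.07, and Gata6 at −0.72 and −0.16, and neither passed.

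Markers of other cell types were read beside the Tagln and Cnn3 changes, and their part in these results was not tested. Of 7 endothelial markers 2 were tested and 0 were called in limma, also at an unadjusted p under 0.05. Of 9 leukocyte markers 3 were tested, and Lyz2 and Cd3e were called higher and Cd14 lower in both comparisons, while Ptprc, the pan-leukocyte marker, was detected on no array. A dimmer Lyz2 probe, at 0.41 and 0.56, did not pass. The summed leukocyte intensity was 1545 to 1945 on the mir128 arrays, 1510 to 1673 on the shScr2 arrays and 1517 to 1559 on the shScr1 arrays. The fibroblast sum was 2109 to 3722 on the mir128 arrays, 1013 to 1121 on the shScr2 arrays and 2293 to 2618 on the shScr1 arrays. Of 6 fibroblast markers 5 were tested, with 0 called higher and 1 lower against shScr1, and 1 higher and 0 lower against shScr2. Pdgfra fell by 1.19 on the log2 scale against shScr1, and its −0.73 against shScr2 did not pass. Dpt, at 0.57 and 1.00, and Pi16, at −0.45 and 0.25, passed in neither comparison. Dcn was 2.25 higher against shScr2 and at −0.16 against shScr1, which did not pass, and the scrambled groups themselves differed by −2.40 in shScr2 minus shScr1 (limma, adjusted p = 0.0165). The neuronal sum was 1402 to 1570 on the mir128 arrays, 1191 to 1351 on the shScr2 arrays and 1300 to 1337 on the shScr1 arrays. That of skeletal and cardiac muscle, with 0 markers detected often enough to be tested, was 1214 to 1339 on the mir128 arrays, 1042 to 1178 on the shScr2 arrays and 1145 to 1173 on the shScr1 arrays. The endothelial sum was 916 to 1025 on the mir128 arrays, 804 to 877 on the shScr2 arrays and 884 to 888 on the shScr1 arrays. All these sums add intensities not scaled between arrays. Per array, 1 or 2 of 12 neuronal, 0 or 1 of 11 muscle and 1 or 2 of 8 endothelial probes were detected. The median intensity of all probes ran from 103 on shScr2 replicate B to 137 on mir128 replicate A. The part of array brightness in these sums was not tested.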

How the data were processed

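Illumina bead arrays measured mRNA in 6 samples, 2 in each of 3 groups taken from the sample titles. The deposited table held, per the file headers, 1 linear intensity and 1 detection p-value per probe and array, and the authors did not subtract background from these intensities. A second deposited table held the authors' processed values, which ran over a log2-like range (median 7.77 in every column) and served as an alternative. Their transform and centring: not given in the sources used here. Its columns correlated with their own arrays at 0.963 or more and with other arrays at 0.830 or less. GenomeStudio 2011.1, lumi and limma stand in the submitters' processing notes with no role or order.

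Intensities were corrected with the normal-exponential model in limma 3.58.1 (R 4.3.3), with background inferred from the detection p-values, an offset of 16, log2 and quantile normalization. Symbols came from the platform annotation, with 23978 probes named by 1 symbol, 0 by several and 1719 by none. Probes detected at 0.05 on at least 2 of 6 arrays (12452) were fitted with lmFit, 1 mean per group, and eBayes (prior df 3.77, residual df 3). Tests were two-sided and adjusted by Benjamini-Hochberg over all 12452 probes, with a threshold of 0.05. Lists were counted per gene by the brightest probe over the arrays (9010 genes). A lower bound was set where a gene was undetected on a whole group, from the lowest detected level per array. The code was tested on simulated data.

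The genes, lists and tests were chosen with earlier results of these data known. Genes named were all probes of the family, the 5 most like profiles per tested gene, the genes fixed by name in each list and the 4 highest in mean level of each list. Alternatives covered background correction, normalization, offset, detection filter, the authors' values, eBayes settings, the groups in the fit, the replicate letter as a block and each array left out. The replicate letters were not treated as pairing: the deviations of same-lettered arrays correlated at 0.115 to 0.157 between groups, with 2 letters only.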

Additional observations from a re-analysis of the deposited data

How the results depend on the processing

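Tagln kept its direction and its call in both miR-128 contrasts under all 19 other settings, and Cnn2 passed under none. Cnn3 kept its direction in the miR-128 contrasts and lost calls without single scrambled arrays, and the cause was not tested. Fits without a mir128 array do not measure the spread within mir128, so their calls are no check of Cnn3. Over all probes, the calls against shScr1 numbered 1576 with a common median (1021 higher and 555 lower, against 1304 and 1266) and 1336 with only the 2 groups fitted, and 211 to 4138 with 1 array left out. They were 262 without shScr1 A, 211 without shScr1 B, 1302 without shScr2 A, 1274 without shScr2 B and 4138 without mir128 B. Against shScr2 they numbered 1142 with only the 2 groups and 230 to 3779 with 1 array left out (230 without shScr2 A, 241 without shScr2 B, 1140 without shScr1 A and 1135 without shScr1 B). A common median split them into 1405 higher and 414 lower, against 1226 and 1134. Between shScr2 and shScr1, 9 probes were called, against 33 without background correction, 5 with a common median, 24 at an offset of 50, 21 on the authors' values, 39 with trend and robust on, 198 with only the 2 groups, 1 with the replicate block and 0 to 301 with 1 array left out. Called family probes numbered 1 to 2 with 1 array left out in either miR-128 contrast, and 1 with only the 2 groups against shScr2. The second Cnn2 probe turned sign without mir128 A against shScr1 (−0.11; −0.11 to 0.42 with 1 array left out). Against shScr2 it turned sign with a common median (0.13) and without mir128 B or shScr2 A (0.04 and 0.12; −0.56 to 0.12 with 1 array left out). The Cnn3 difference between shScr2 and shScr1 turned sign without shScr1 B (0.02) and without shScr2 A (0.088), with −0.13 to 0.088 over the arrays left out. With the replicate letter as a block 2528 and 2305 probes were called, and no family call changed (Cnn3, adjusted p = 0.0231 and 0.0226 in limma). The signal over background limits Tagln in the scrambled groups, and Cnn1 and Tagln3 on all arrays.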
